A study of Homo sapiens with 6 samples.

Results

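The genes described here are 10 transcripts known as feedback regulators or readouts of the ERK pathway: the phosphatase genes DUSP4, DUSP5 and DUSP6, the Sprouty genes SPRY2 and SPRY4, the Sprouty-related genes SPRED1 and SPRED2, the ETS factor genes ETV4 and ETV5, and PHLDA1. They were chosen by gene symbol, and each of the 10 was found once among the 58735 genes of the deposited table. The libraries came from KYSE30, an established line of human oesophageal squamous carcinoma cells. Cells of 2 libraries each had received si-RAB23-9, si-RAB23-1 (both siRNAs against the small GTPase gene RAB23) or the control siRNA si-NC, in every case at 100 nM with the reagent HiPerFect, and RNA was taken with Trizol near confluence. All 3 groups thus share the transfection, no untransfected cells are among them, and the only line is KYSE30. Neither the siRNA sequences nor the time to harvest were known here.

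Growth factor receptors such as the EGF receptor act through RAS, RAF and MEK on the kinase ERK, and active ERK induces transcripts whose products damp the same cascade. DUSP4 and DUSP5 are phosphatases that act on MAP kinases in the nucleus, DUSP6 removes phosphate from ERK in the cytoplasm, Sprouty proteins act between receptor and RAF, and SPRED proteins bring the RAS inactivator neurofibromin to the membrane. ETV4 and ETV5 are transcription factors of the PEA3 group that carry ERK signals to target genes, and PHLDA1 encodes a pleckstrin homology-like protein whose transcript is often read as a sign of ERK output. ERK activity itself was not measured in these libraries.

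RAB23 transcript was at 1.18 and 1.27 FPKM with si-RAB23-9, at 1.03 and 1.10 with si-RAB23-1, and at 3.27 and 3.33 with si-NC, where FPKM divides the fragments of a gene by its length and by the size of the library. All 4 RAB23 siRNA libraries lay below both si-NC libraries, at 0.372 times the mean si-NC level with si-RAB23-9 and 0.322 times with si-RAB23-1. On the scale of log2(FPKM + 1), which understates changes of low genes, these were -0.95 and -1.06 (adjusted p = 0.00392 and 0.00314 by limma), and voom on the recovered reads gave -1.43 for si-RAB23-9 and -1.65 to -1.62 for si-RAB23-1. The reads recovered from the FPKM came to between 17211025 and 24178125 per library. Of 8 squamous epithelial markers, 6 reached 1 FPKM in 2 or more libraries, among them SFN (262 to 311 FPKM) and TP63 (11.4 to 19.7), while the basal keratin gene KRT5 (at most 0.272) and PKP1 (at most 0.0454) were near 0. The 6 leukocyte markers summed to at most 0.866 FPKM in any library. The fibroblast markers COL1A2, DCN and LUM and the endothelial marker KDR were at 0 throughout, and the others of those lists lay under 1 FPKM except COL1A1 (3.30 to 3.77) and CDH5 (1.49 to 3.65). Replicates are described as biological, but separate cultures are not named, so a p-value reflects library-to-library spread that could be technical.

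The changes of the members were small, with ratios to the mean si-NC level between 0.673 and 1.47. With si-RAB23-9, SPRY4, SPRED1 and PHLDA1 fell relative to si-NC. With si-RAB23-1, DUSP4 and DUSP5 rose and SPRED1, ETV4 and ETV5 fell. Tested directly against each other, the siRNAs differed in DUSP4, DUSP5, ETV4, ETV5 and PHLDA1. Because both comparisons with si-NC use the same 2 si-NC libraries, they are not independent of each other.

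Changes were tested with limma on log2(FPKM + 1) in the 14352 genes that reached 1 FPKM in 2 or more libraries. Those whose p, adjusted over all of them by the Benjamini-Hochberg method, was under 0.05 are referred to as called. All 10 members passed this filter. With si-RAB23-9, 3 of 10 members were called, all lower, where 13.3% of all genes tested were called, 7.56% higher and 5.69% lower. With si-RAB23-1, 5 of 10 were called, against 15.4% of all genes: 2 higher (8.13% of all genes) and 3 lower (7.26%). Between the siRNAs 5 of 10 were called, against 21.0% of all genes: 2 higher with si-RAB23-9 (11.1%) and 3 lower (9.89%). The median log2 fold change of the members was -0.14 with si-RAB23-9 and -0.02 with si-RAB23-1, beside 0.01 for all genes tested in either comparison. It was -0.15 for si-RAB23-9 minus si-RAB23-1, beside 0 for all genes. With only 2 libraries a group, non-overlapping groups are common. The si-RAB23-9 and si-NC libraries did not overlap in 8 of 10 members (1 higher, 7 lower), beside 61.2% of all genes tested (32.5% higher, 28.7% lower). The si-RAB23-1 and si-NC libraries did not overlap in 7 (3 higher, 4 lower), beside 60.2% (31.7% higher, 28.5% lower). The 2 siRNAs did not overlap in 8 (2 higher and 6 lower with si-RAB23-9), beside 63.2% (32.1% higher, 31.2% lower). Without the filter on low levels some calls ended: SPRY4 (adjusted p = 0.0573) and SPRED1 (0.118) with si-RAB23-9, DUSP4 (0.0512) and SPRED1 (0.135) with si-RAB23-1, and DUSP5 (0.116) and ETV4 (0.0925) between the siRNAs. Quantile scaling ended that of SPRED1 with si-RAB23-1 (0.0527). The members stood between percentile 39.0 and percentile 94.5 of the tested genes by level in si-NC.

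**Figure D1:**
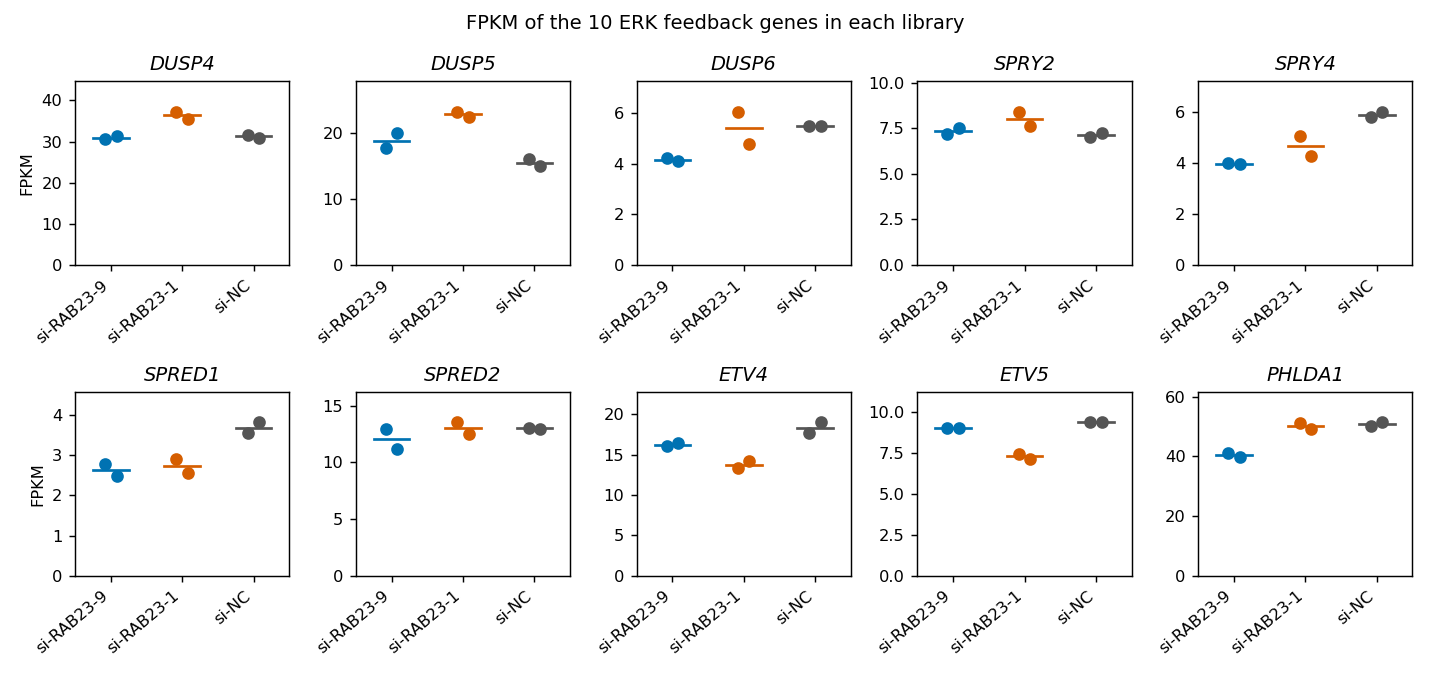
FPKM of each of the 10 genes (vertical axes from 0) in each of the 6 libraries, grouped by siRNA; points are libraries and bars are group means. SPRED1 lies lower in all 4 RAB23 siRNA libraries than in both si-NC libraries, and DUSP4 is higher in both si-RAB23-1 libraries (mean 36.4 FPKM) than in both si-NC libraries (mean 31.3 FPKM).

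The 3 members called lower with si-RAB23-9 in the fit on log2(FPKM + 1) are the 3 whose annotated 3′ UTR contains the 7-mer AAGTTAA. With voom DUSP6 (-0.40, adjusted p = 0.00268 and 0.00245) and ETV4 (-0.18, adjusted p = 0.0365 and 0.0344) were called lower too. Neither holds a copy of AAGTTAA. This 7-mer and GACATAT had been picked in earlier work on these same libraries because carriers of AAGTTAA fell more often than other genes with si-RAB23-9 and carriers of GACATAT with si-RAB23-1, so the match is a description and no independent evidence. In the longest annotated 3′ UTR per gene (GENCODE release 29, GRCh38), AAGTTAA stood in 1821 of 10907 tested coding genes (16.7%), of which 18.3% were called lower with si-RAB23-9. Among the 9086 genes without it the share was 4.30%. Of the carriers 3.73% were called higher, beside 10.5% of the genes without AAGTTAA. The 3′ UTRs of the members are longer than most, with a median of 2490 bases beside 1345 for all genes scanned. Among the members the carriers SPRED1 (5585 bases), PHLDA1 (4672) and SPRY4 (3782) have long ones. DUSP4 (3962 bases) also has a long one and holds no copy. The lengths of carriers and other genes scanned were not compared. The copies are shown with up to 10 bases on either side, as the transcript reads from 5′ to 3′, with the 7-mer in capitals, for SPRY4 (chr5:142310495-142310501, minus strand), SPRED1 (chr15:38352072-38352078 and chr15:38357005-38357011, plus strand) and PHLDA1 (chr12:76029492-76029498, minus strand).
SPRY4: agaaaaaaacAAGTTAAaaactgaatg
SPRED1, first copy: aatctaagaaAAGTTAAcacttgggaa
SPRED1, last copy: tcttcacatcAAGTTAAtacccacaag
PHLDA1: aaaaagctaaAAGTTAAaaatggtgta

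The bases around the 7-mer differ between the 4 copies. In SPRY4 the copy begins at base 3708 of 3782, near the end of the annotated UTR, and in PHLDA1 at base 621 of 4672. SPRED1 holds a copy at base 408 and another at base 5341 of 5585. The part of the 7-mer in the lower levels was not tested. With si-RAB23-1, whose calls among AAGTTAA carriers (8.57% lower) were close to those of the other genes (8.72% lower), SPRED1 fell, SPRY4 was lower without passing the test and PHLDA1 was at a log2 fold change of -0.02. None of the 10 members contains GACATAT (0 of 10, beside 7.64% of the genes scanned), including ETV4, ETV5 and SPRED1, which fell with si-RAB23-1. Of all GACATAT carriers 27.6% were called lower with si-RAB23-1, beside 7.13% of the other genes scanned.

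**Figure D2:**
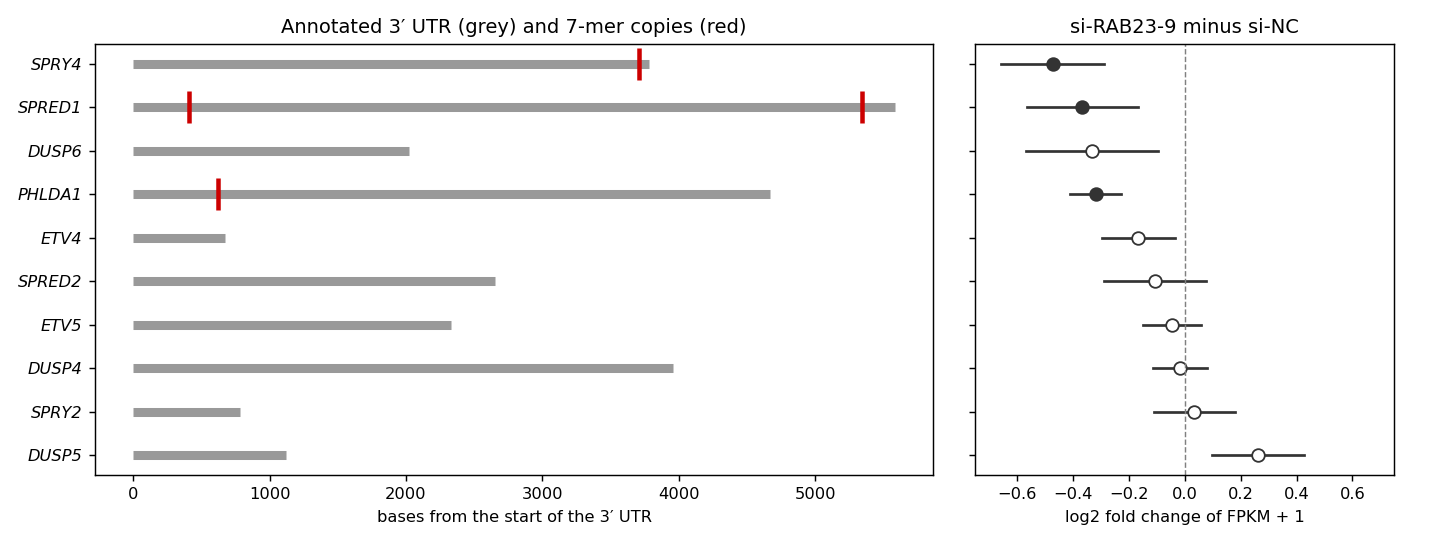
Left, the annotated 3′ UTR of each of the 10 genes (grey, in bases from its start) with copies of the 7-mer AAGTTAA (red); right, the log2 fold change of FPKM + 1 for si-RAB23-9 minus si-NC with its 95% limma interval (filled: adjusted p under 0.05), sorted by that change. The 3 filled points, from -0.47 to -0.32, are the 3 genes with a red mark, and DUSP6 (-0.33, open) has none. With voom DUSP6 and ETV4, neither with a mark, were called lower as well. The 7-mer was picked from these same libraries, so the match is no independent evidence.

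In si-NC cells PHLDA1 had the highest level per length (50.7 ± 0.883 FPKM; SD, n = 2 here and below), followed by DUSP4 (31.3 ± 0.497), ETV4 (18.4 ± 0.942), DUSP5 (15.6 ± 0.785) and SPRED2 (13.0 ± 0.0524). ETV5 came next (9.34 ± 0.00289), then SPRY2 with 7.03 and 7.26, SPRY4 (5.92 ± 0.159), DUSP6 (5.49 ± 0.0141) and SPRED1 (3.69 ± 0.184). Neighbours in this order did not overlap in their si-NC libraries. With both RAB23 siRNAs DUSP5 stood above ETV4 in this order, with si-RAB23-9 DUSP6 stood above SPRY4, and with si-RAB23-1 SPRY2 stood above ETV5. With si-RAB23-1 the libraries of ETV4 overlapped those of SPRED2, and those of DUSP6 overlapped those of SPRY4, so these pairs have no order there.

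DUSP4 and DUSP5 rose with si-RAB23-1. DUSP5 (ENSG00000138166, chromosome 10, 110497838 to 110511544 on GRCh38, plus strand) was at 17.8 and 20.0 FPKM with si-RAB23-9, at 23.3 and 22.5 with si-RAB23-1, against 16.1 and 15.0 with si-NC. Its 3 groups did not overlap, with si-RAB23-1 highest. It reached 1.47 times the si-NC level with si-RAB23-1 (log2 fold change 0.53, SE 0.0660, limma adjusted p = 0.00836), the largest change of any member with that siRNA. With si-RAB23-9 the ratio was 1.21 (log2 fold change 0.26, 95% interval 0.10 to 0.42, limma adjusted p = 0.0559), which did not pass the test. It did among genes of mean FPKM of at least 5 (adjusted p = 0.0230) and with voom (0.00536 and 0.00489). The difference between the siRNAs was called (-0.27, limma adjusted p = 0.0403). That difference is the least stable call of this gene: it was lost with any 1 of the 6 libraries left out (adjusted p = 0.0561 to 0.150) and with the replicate block (0.0710). The rise with si-RAB23-1 was lost only without si-NC replicate 2 (0.48, adjusted p = 0.0584).

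DUSP4 (ENSG00000120875, chromosome 8, 29333064 to 29350668, minus strand) had 30.5 and 31.3 FPKM with si-RAB23-9, 37.2 and 35.5 with si-RAB23-1, against 31.6 and 30.9 with si-NC. Both si-RAB23-1 libraries lay above the other 4, and the si-RAB23-9 and si-NC libraries overlapped. It rose to 1.16 times si-NC with si-RAB23-1 (log2 fold change 0.21, SE 0.0389, limma adjusted p = 0.0224). With si-RAB23-9 the change was -0.02, with an interval of -0.11 to 0.08. The siRNAs differed by -0.23 (limma adjusted p = 0.0152). The call with si-RAB23-1 was lost without either si-NC library, either si-RAB23-9 library or si-RAB23-1 replicate 1 (0.18 to 0.23, adjusted p = 0.0541 to 0.125), and the difference without either si-RAB23-9 library (-0.25 to -0.21, adjusted p = 0.0741 and 0.0898).

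DUSP6, the gene of the cytoplasmic ERK phosphatase (ENSG00000139318, chromosome 12, 89347232 to 89353271, minus strand), was not called in the fit on log2(FPKM + 1). Its levels were 4.21 and 4.10 FPKM with si-RAB23-9, 6.05 and 4.79 with si-RAB23-1, against 5.48 and 5.50 with si-NC. The si-RAB23-9 libraries lay below the rest, and the si-RAB23-1 pair spanned si-NC. With si-RAB23-9 the level was 0.756 times si-NC (log2 fold change -0.33, SE 0.0952, limma adjusted p = 0.0764). With si-RAB23-1 the change was -0.02, with an interval of -0.26 to 0.21. The change with si-RAB23-9 was called among genes of mean FPKM of at least 5 (adjusted p = 0.0381), with voom on the recovered reads (-0.40, adjusted p = 0.00268 and 0.00245 under its scalings) and without either si-RAB23-1 library (adjusted p = 0.0180 and 0.0175). The siRNAs differed by -0.31 (limma adjusted p = 0.0726), which was called at that mean FPKM (0.0382), with voom (0.0123 and 0.00678) and without si-RAB23-1 replicate 2 (-0.45, adjusted p = 0.0135). The si-RAB23-1 libraries held 464 and 493 reads of the gene. The antisense gene AC024909.2 shares 1789 of the 4546 annotated exonic bases of DUSP6 and was at most 0.200 FPKM in any library; whether the counting used strand was not known, so reads of the pair cannot be told apart.

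Among the Sprouty genes, SPRY4 fell with si-RAB23-9. SPRY4 (ENSG00000187678, chromosome 5, 142310427 to 142326455, minus strand) was at 3.999 and 3.966 FPKM with si-RAB23-9, at 5.06 and 4.29 with si-RAB23-1, against 5.81 and 6.03 with si-NC. All 4 RAB23 siRNA libraries lay below both si-NC libraries, the si-RAB23-9 ones lowest. The ratio to si-NC was 0.673 with si-RAB23-9 (log2 fold change -0.47, SE 0.0743, limma adjusted p = 0.0156), the largest change of any member with this siRNA. It was 0.790 with si-RAB23-1 (change of -0.29 in log2, limma adjusted p = 0.0537), just outside the threshold. The difference between the siRNAs was -0.18, with an interval of -0.37 to 0 and a limma adjusted p = 0.138. It ranged from -0.28 to -0.09 with 1 library left out and was called without si-RAB23-1 replicate 2 (adjusted p = 0.0368). The recovered reads of SPRY4 numbered 462 to 496 in the si-RAB23-9 libraries, 550 to 626 in the si-RAB23-1 libraries and 774 to 910 in the si-NC libraries. Without any 1 of the si-RAB23-9 or si-NC libraries the call with si-RAB23-9 was lost (-0.50 to -0.45, adjusted p = 0.0778 to 0.0956), and without si-RAB23-1 replicate 1 the change with si-RAB23-1 was called (-0.39, adjusted p = 0.0338), as it was with voom (0.000369 and 0.000739). In bulk RNA a lower level in every cell and fewer cells with the transcript cannot be told apart.

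SPRY2 (ENSG00000136158, chromosome 13, 80335976 to 80340951, minus strand) was not called in any comparison. It was at 7.18 and 7.49 FPKM with si-RAB23-9, at 8.40 and 7.60 with si-RAB23-1, against 7.03 and 7.26 with si-NC. The si-RAB23-9 and si-NC libraries overlapped, and both si-RAB23-1 libraries were above them. Neither change passed the test: 0.03 with si-RAB23-9 (interval -0.11 to 0.18) and 0.14 with si-RAB23-1 (interval -0.002 to 0.288, limma adjusted p = 0.163).

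SPRED1 was called lower with both RAB23 siRNAs. With voom DUSP5, SPRY4 and ETV4 were also called the same way with both. Voom called more genes than the main fit. With si-RAB23-9 it called 3408 and 3411 genes under its scalings, where the main fit called 1902. With si-RAB23-1 it called 3800 and 3823, where the main fit called 2209. The share of all genes tested that was called the same way with both was not counted. Whether shared calls were more common among the members than among all genes was therefore not tested. Both comparisons use the same 2 si-NC libraries, so a shared call is not 2 independent results. SPRED1 (ENSG00000166068, chromosome 15, 38252326 to 38357249, plus strand) encodes the SPRED protein whose loss in humans causes Legius syndrome. Its levels were 2.79 and 2.48 FPKM with si-RAB23-9, 2.89 and 2.55 with si-RAB23-1, against 3.56 and 3.81 with si-NC. The RAB23 siRNA groups overlapped each other, and both lay below si-NC. The ratios to si-NC were 0.714 with si-RAB23-9 (log2 fold change -0.37, SE 0.0802, limma adjusted p = 0.0386) and 0.739 with si-RAB23-1 (change of -0.33 in log2, limma adjusted p = 0.0461). The siRNAs differed by -0.04, with an interval of -0.23 to 0.16. Both calls are near the threshold: the first was lost without any 1 of the si-RAB23-9 or si-NC libraries (-0.43 to -0.31, adjusted p = 0.0946 to 0.186), the second without any 1 of the 6 libraries (-0.40 to -0.27, adjusted p = 0.0690 to 0.203), and both with the replicate block (0.0598 and 0.0676).

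SPRED2 (ENSG00000198369, chromosome 2, 65310851 to 65432637, minus strand), its close relative, had 13.0 FPKM in si-NC cells on average, where SPRED1 had 3.69. It stood at 12.9 and 11.2 FPKM with si-RAB23-9, at 13.5 and 12.5 with si-RAB23-1, against 13.1 and 13.0 with si-NC. The si-RAB23-1 libraries spanned si-NC, and those of si-RAB23-9 lay just below it. The changes were -0.11 with si-RAB23-9 (interval -0.29 to 0.08, limma adjusted p = 0.397) and -0.003 with si-RAB23-1 (interval -0.18 to 0.18, limma adjusted p = 0.985). The change with si-RAB23-9 ranged from -0.20 to -0.01 with 1 library left out.

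ETV4 and ETV5, the PEA3 factor genes among the members, both fell with si-RAB23-1. ETV4 (ENSG00000175832, chromosome 17, 43527844 to 43579620, minus strand) was at 16.0 and 16.4 FPKM with si-RAB23-9, at 13.4 and 14.2 with si-RAB23-1, against 17.7 and 19.0 with si-NC. The 3 groups did not overlap, with si-RAB23-1 lowest. Its level with si-RAB23-1 was 0.751 times si-NC (log2 fold change -0.39, SE 0.0525, limma adjusted p = 0.0102). With si-RAB23-9 the change was -0.17 (interval -0.30 to -0.04, limma adjusted p = 0.0969), which was called with voom only (adjusted p = 0.0365 and 0.0344), and the siRNAs differed by 0.22 (limma adjusted p = 0.0362). The fall with si-RAB23-1 was lost only without si-NC replicate 2 (-0.34, adjusted p = 0.0650). The difference was lost without si-RAB23-1 replicate 1 or any 1 of the si-RAB23-9 or si-NC libraries (0.18 to 0.24, adjusted p = 0.0517 to 0.165). DHX8 covers the locus on the other strand, at 10.8 to 11.5 FPKM. In the GENCODE basic set of transcripts its exons share 0 of the 2804 exonic bases of ETV4. The deposited length of ETV4 is 3607 bases, and exons outside the basic set were not checked, so shared reads are not excluded.

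ETV5 (ENSG00000244405, chromosome 3, 186046308 to 186110318, minus strand) had 9.01 and 9.02 FPKM with si-RAB23-9, 7.44 and 7.12 with si-RAB23-1, against 9.34 and 9.35 with si-NC. Both si-RAB23-1 libraries were the lowest, and the groups did not overlap. It fell to 0.779 times si-NC with si-RAB23-1 (log2 fold change -0.32, SE 0.0419, limma adjusted p = 0.00927). With si-RAB23-9 the change was -0.05, with an interval of -0.15 to 0.06. The siRNAs differed by 0.28 (limma adjusted p = 0.0112). The fall was lost without either si-NC library (-0.32, adjusted p = 0.0654 and 0.0675) and the difference without either si-RAB23-9 library (adjusted p = 0.0670 and 0.0726).

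PHLDA1 (ENSG00000139289, chromosome 12, 76025447 to 76033932, minus strand), the most abundant member, fell with si-RAB23-9. It was at 41.1 and 39.9 FPKM with si-RAB23-9, at 51.0 and 49.1 with si-RAB23-1, against 50.1 and 51.4 with si-NC. The si-RAB23-9 libraries lay apart from the other 4, among which the groups overlapped. The level was 0.798 times si-NC (log2 fold change -0.32, SE 0.0370, limma adjusted p = 0.00740). With si-RAB23-1 the change was -0.02 (interval -0.11 to 0.07), and the siRNAs differed by -0.30 (limma adjusted p = 0.00652). The call with si-RAB23-9 was lost without any 1 of the si-RAB23-9 or si-NC libraries, with adjusted p = 0.0501 to 0.0675, and the difference without si-RAB23-9 replicate 2 (-0.28, adjusted p = 0.0544). Each library held between 5709 and 9652 reads of PHLDA1. The antisense gene AC011611.3, at most 0.849 FPKM, shares 553 of the 8069 annotated exonic bases of PHLDA1.

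**Figure D3:**
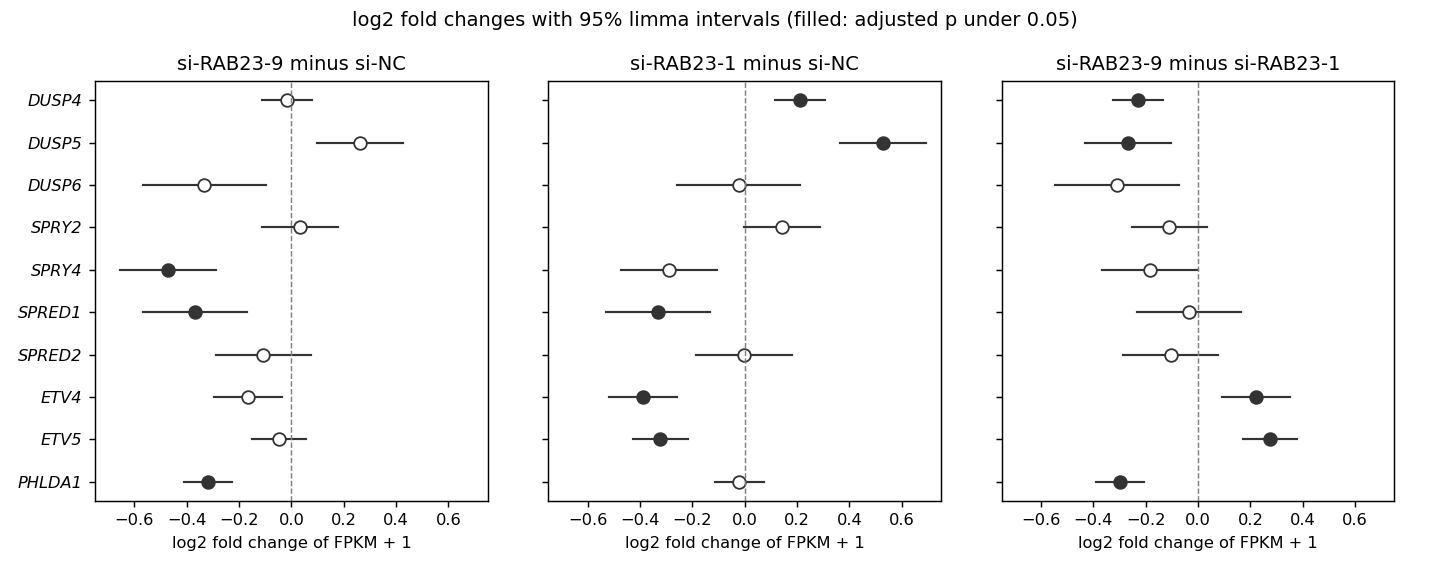
Log2 fold changes of FPKM + 1 (horizontal axes) for the 10 genes in the 3 comparisons, with 95% limma intervals; filled points passed an adjusted p of 0.05. DUSP5 is highest with si-RAB23-1 (0.53) and SPRY4 lowest with si-RAB23-9 (-0.47), and ETV4 and ETV5 lie right of 0 in the direct comparison while DUSP4, DUSP5 and PHLDA1 lie left of it.

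The pattern of SPRY4 over the 6 libraries, taken as log2(FPKM + 1) minus its mean, was most like that of the genes AP001469.1, CYP4F11 and NTF4, with root mean square differences of 0.0303, 0.0404 and 0.0459 where the median over all genes tested was 0.237. For DUSP5 the nearest genes were TMEM206, DLGAP1-AS2 and POP1, at 0.0332, 0.0357 and 0.0434 with a median of 0.249. These are likenesses over 6 libraries of 3 groups and carry no test.

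RefSeq promoters (GRCh38.p14, 250 bases before to 50 after a start) were at hand for 6 of the 10 members, in 9 windows. They were searched on both strands for the ETS core CGGAAG, for the AP-1 element TGANTCA and for the cyclic AMP response element TGACGTCA, the first of which ETV4, ETV5 and other ETS factors can bind. The letters CGGAAG stood once each in a window of DUSP6, PHLDA1 and SPRED2, beside 30.8% of the 13032 promoter windows of tested genes. No window of SPRY2, SPRY4 or SPRED1 held any of the 3 motifs. The AP-1 letters stood at 2 places in the other SPRED2 window (5.33% of windows of tested genes), and TGACGTCA in none (2.89%). The DUSP6 and PHLDA1 windows are shown 5′ to 3′ on the strand of the gene. They were picked because they hold the ETS letters, in capitals, and because both si-RAB23-9 libraries of these genes lay below the other 4. DUSP6 was not called in the fit on log2(FPKM + 1). The si-RAB23-9 libraries of SPRY4 also lay below the other 4 without a match in its window, and those of SPRED2 did not though it holds the ETS letters. A link of letters and levels was not tested. The DUSP6 window is chr12:89352452-89352751 and the PHLDA1 window chr12:76031727-76032026, both on the minus strand and inside the longer gene spans of the deposited table.
DUSP6: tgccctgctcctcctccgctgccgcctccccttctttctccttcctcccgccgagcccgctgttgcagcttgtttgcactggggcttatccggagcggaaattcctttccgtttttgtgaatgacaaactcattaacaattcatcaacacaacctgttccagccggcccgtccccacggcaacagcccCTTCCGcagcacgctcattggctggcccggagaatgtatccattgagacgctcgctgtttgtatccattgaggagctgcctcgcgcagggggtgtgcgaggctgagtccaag
PHLDA1: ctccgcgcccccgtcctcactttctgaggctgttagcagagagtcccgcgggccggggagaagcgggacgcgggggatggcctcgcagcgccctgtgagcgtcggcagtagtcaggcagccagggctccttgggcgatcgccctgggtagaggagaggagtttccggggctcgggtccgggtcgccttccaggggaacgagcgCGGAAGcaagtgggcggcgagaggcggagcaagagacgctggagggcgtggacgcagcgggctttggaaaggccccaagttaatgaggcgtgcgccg

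In the DUSP6 window the match is on the opposite strand and reads CTTCCG, and in the PHLDA1 window it is on the strand of the gene. A match in such a window is a description of the letters, not a site.

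The rest of the pathway was described by lists of other genes. The counts of these lists stand beside the calls among all genes tested. In the si-RAB23-9 comparison against si-NC limma called 7.56% of these higher, 5.69% lower. The si-RAB23-1 comparison gave 8.13% higher, 7.26% lower. Whether any list held more calls than these shares was not tested. Of 12 EGF family ligands and receptors, 10 were tested. With si-RAB23-9, 2 rose and 2 fell (median log2 fold change 0.14), and with si-RAB23-1, 2 rose and 0 fell by limma (median 0.17; 4 higher and 1 lower at an unadjusted p under 0.05). AREG, the gene of the ligand amphiregulin, was at 90.3 and 92.5 FPKM with si-RAB23-9, at 123.4 and 112.4 with si-RAB23-1, against 54.5 and 52.4 with si-NC. All RAB23 siRNA libraries were above si-NC. The rise in log2 was 0.76 for si-RAB23-9 (limma adjusted p = 0.00265) and 1.12 for si-RAB23-1 (limma adjusted p = 0.00184). EREG, the gene of the ligand epiregulin, rose by 0.54 with si-RAB23-9 and 0.81 with si-RAB23-1 (limma adjusted p = 0.0150 and 0.00527). The receptor gene EGFR was at 136.0 and 138.9 FPKM with si-RAB23-9, at 167.3 and 158.8 with si-RAB23-1, against 162.8 and 162.1 with si-NC. It fell with si-RAB23-9 (-0.24, limma adjusted p = 0.0124) and not with si-RAB23-1 (0.005, interval -0.08 to 0.09), and the siRNAs differed (-0.24, limma adjusted p = 0.00915). TGFA, another ligand gene, was at 15.6 and 15.5 FPKM with si-RAB23-9, at 22.7 and 20.4 with si-RAB23-1, against 18.9 and 18.6 with si-NC. It fell by 0.26 with si-RAB23-9 (limma adjusted p = 0.0369). With si-RAB23-1 it was at 0.19 (limma adjusted p = 0.0786), which was called with voom (0.0243 and 0.00949), among genes of mean FPKM of at least 5 and without si-RAB23-1 replicate 2. The siRNAs differed in TGFA by -0.44 (limma adjusted p = 0.00656), called under all 14 alternatives. Without any 1 of the si-RAB23-9 or si-NC libraries the calls with si-RAB23-9 of EREG, EGFR and TGFA were lost, with adjusted p of 0.0760 to 0.0873, 0.0781 to 0.0893 and 0.141 to 0.162. The difference between the siRNAs in EGFR was lost without either si-RAB23-9 library (adjusted p = 0.0569 and 0.0655).

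Of 25 genes of the RAS-ERK cascade, all tested, 4 rose and 3 fell with si-RAB23-9 (median -0.05), and 4 rose with si-RAB23-1 (median -0.01). NRAS, which encodes one of the RAS GTPases, was at 21.0 and 19.3 FPKM with si-RAB23-9, at 38.3 and 34.1 with si-RAB23-1, against 28.0 and 27.9 with si-NC. It fell with si-RAB23-9 (-0.46, limma adjusted p = 0.0126) and rose with si-RAB23-1 (0.36, limma adjusted p = 0.0223), and the difference of -0.82 was called (limma adjusted p = 0.00222) with any 1 library left out. GRB2, the gene of the adaptor between receptors and RAS exchange factors, fell with si-RAB23-9 by 0.38 (limma adjusted p = 0.00425), also with any 1 library left out, and was at -0.02 with si-RAB23-1. PTPN11, which encodes the phosphatase SHP2, rose by 0.27 with si-RAB23-9 and 0.26 with si-RAB23-1 (limma adjusted p = 0.0206 and 0.0217), and CBL, a ubiquitin ligase gene, rose by 0.26 with si-RAB23-1. With si-RAB23-9 CBL was at 0.16 (limma adjusted p = 0.0964), which was called with voom (adjusted p = 0.0179 and 0.0175). The calls against si-NC of NRAS, PTPN11 and CBL were each lost without either si-NC library and without others. The adjusted p values then were 0.0528 to 0.0810 and 0.0591 to 0.110 for NRAS with si-RAB23-9 and si-RAB23-1, 0.0950 to 0.116 and 0.0514 to 0.114 for PTPN11, and 0.0624 to 0.129 for CBL.

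Of the other MAP kinase phosphatase genes, 6 of 7 were tested. With si-RAB23-9, 2 rose (median 0.08), and with si-RAB23-1, 1 rose and 2 fell (median -0.05). DUSP10, whose product acts on p38 and JNK, was at 58.0 and 59.2 FPKM with si-RAB23-9, at 41.0 and 44.9 with si-RAB23-1, against 34.9 and 38.4 with si-NC. It rose with si-RAB23-9 by 0.66 (limma adjusted p = 0.00461), also with any 1 library left out. With si-RAB23-1 DUSP10 was at 0.22 (limma adjusted p = 0.0675), with both libraries above si-NC. That change was called with voom (adjusted p = 0.00619 and 0.00152), at a mean FPKM of at least 5 (0.0296) and with the replicate block (0.0421). DUSP2, a nuclear phosphatase gene like DUSP4 and DUSP5, rose with si-RAB23-9 (0.49, limma adjusted p = 0.0195) and fell with si-RAB23-1 (-0.44, limma adjusted p = 0.0239). DUSP2 thus stood the other way from DUSP4 and DUSP5 between the siRNAs (0.93, limma adjusted p = 0.00287, called with any 1 library left out). With si-RAB23-1, DUSP7, a cytoplasmic relative of DUSP6, fell by 0.27 and DUSP16 rose by 0.33. The calls against si-NC of DUSP2, DUSP7 and DUSP16 were lost without either si-NC library and without others, with adjusted p of 0.0541 to 0.122 for DUSP2 with si-RAB23-1, 0.0727 to 0.109 for DUSP2 with si-RAB23-9, 0.0505 to 0.106 for DUSP7 and 0.0667 to 0.156 for DUSP16. Of SPRY1, SPRY3 and SPRED3, 2 were tested and 0 were called by limma in any of the 3 comparisons; at an unadjusted p under 0.05, 1 was lower with si-RAB23-9.

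Of 13 other ETS factor genes 12 were tested. The exception was ETV1, at 0.57 and 0.39 FPKM with si-RAB23-9, 0.55 and 0.60 with si-RAB23-1, against 0.84 and 0.88 with si-NC. Among those tested, 1 rose and 1 fell with si-RAB23-9 (median 0.01), and 1 rose and 3 fell with si-RAB23-1 (median -0.06). ETS2 rose with both (0.40 and 0.21, limma adjusted p = 0.00392 and 0.0168). With si-RAB23-1 EHF, an epithelial ETS factor gene, fell by 0.56, GABPA by 0.49 and ELK3 by 0.25 (limma adjusted p = 0.0119, 0.0129 and 0.0189), beside the falls of ETV4 and ETV5. With si-RAB23-9 EHF was at 0.02 and ELK3 at -0.04, and GABPA at -0.23 (limma adjusted p = 0.0995), which was called with voom (-0.25, adjusted p = 0.00794 and 0.00754). Leaving out either si-NC library ended these 4 calls with si-RAB23-1, at adjusted p of 0.0861 to 0.101 for ETS2, 0.0721 to 0.0753 for EHF, 0.0551 to 0.0808 for GABPA and 0.0880 to 0.110 for ELK3.

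Of 16 other genes known as outputs of ERK, all tested, 3 rose and 1 fell with si-RAB23-9 (median 0.04), and 4 rose and 3 fell with si-RAB23-1 (median -0.02). CCND1, the gene of cyclin D1, was at 75.9 and 77.0 FPKM with si-RAB23-9, at 59.1 and 58.8 with si-RAB23-1, against 113.8 and 113.3 with si-NC, and fell with both (-0.56 and -0.94, limma adjusted p = 0.00143 and 0.000975). MYC was at 34.1 and 31.3 FPKM with si-RAB23-9, at 50.2 and 44.3 with si-RAB23-1, against 23.1 and 22.1 with si-NC, and rose with both (0.51 and 1.03, limma adjusted p = 0.0120 and 0.00272). CCND1 and MYC thus moved in opposite directions. EPHA2, an ephrin receptor gene, was at 86.9 and 87.1 FPKM with si-RAB23-9, at 49.4 and 50.7 with si-RAB23-1, against 100.8 and 91.4 with si-NC. It fell with si-RAB23-1 (-0.93, limma adjusted p = 0.00188), as ETV4 and ETV5 did, and the siRNAs differed by 0.79 (limma adjusted p = 0.00142). With si-RAB23-9 both libraries lay below si-NC, and the change in EPHA2 of -0.14 was not called by limma on log2(FPKM + 1) (adjusted p = 0.134) but was with voom (-0.15, adjusted p = 0.0123 and 0.0121). It ranged from -0.21 to -0.07 with 1 library left out. EPHA4 rose with si-RAB23-9 (0.50, limma adjusted p = 0.0279). The calls with si-RAB23-9 of MYC and EPHA4 were lost without any 1 of the si-RAB23-9 or si-NC libraries, with adjusted p of 0.0580 to 0.0790 and 0.0774 to 0.131, while those of CCND1 with both siRNAs and of EPHA2 and MYC with si-RAB23-1 were kept with any 1 library left out. Of the FGF receptor genes 3 of 4 were tested, and 0 were called by limma in the 3 comparisons; at an unadjusted p under 0.05, 1 was lower with si-RAB23-1 and 1 was higher with si-RAB23-9 than with si-RAB23-1.

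Without the filter on low levels, the calls against si-NC of EREG, TGFA, DUSP2, EPHA4 and PTPN11 with si-RAB23-9 ended, as did those of NRAS, PTPN11, CBL, DUSP2, DUSP7 and DUSP16 with si-RAB23-1 (adjusted p = 0.052 to 0.107). The replicate block ended that of DUSP16 (adjusted p = 0.0572).

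**Figure D4:**
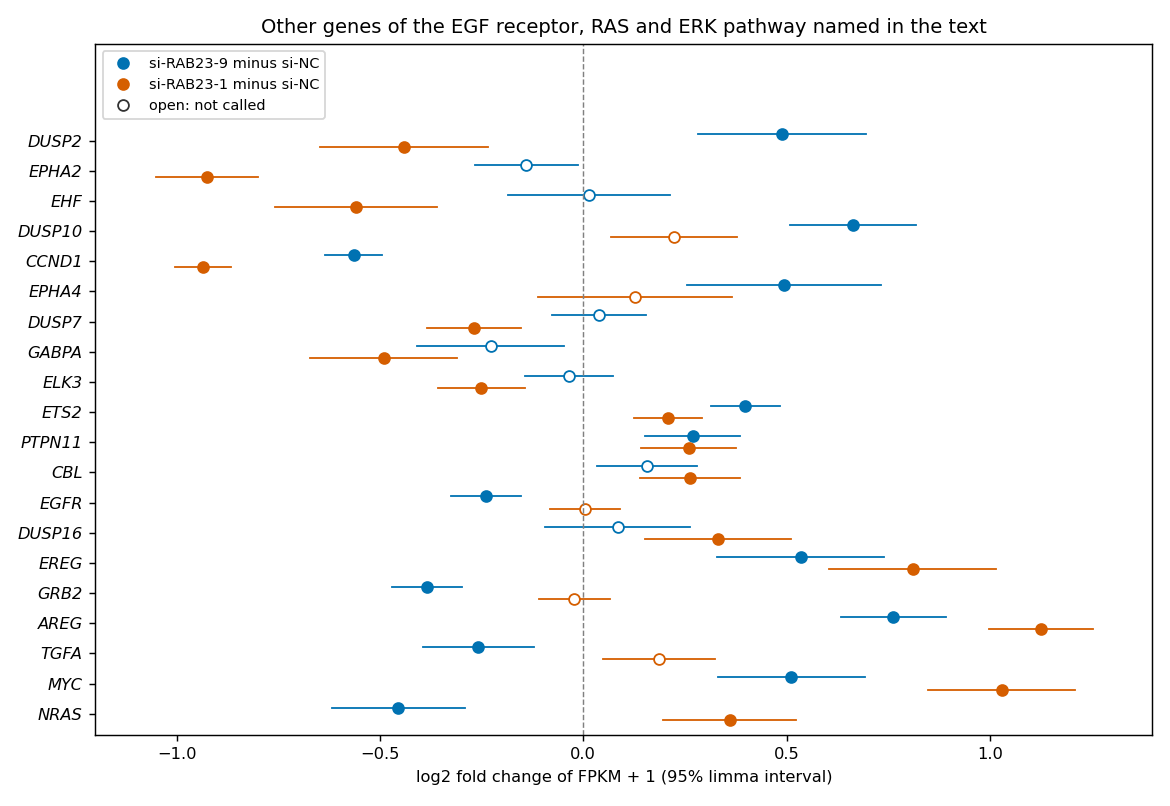
Log2 fold changes of FPKM + 1 (horizontal axis) with 95% limma intervals for 20 other pathway genes, for si-RAB23-9 minus si-NC (blue) and si-RAB23-1 minus si-NC (orange); filled points passed an adjusted p of 0.05. Among genes called with both siRNAs, AREG, EREG, MYC, PTPN11 and ETS2 are right of 0 with both and CCND1 is left of 0 with both. NRAS and DUSP2, also called with both, lie on opposite sides of 0. Other genes, CBL, DUSP10, GABPA and EPHA2 among them, lie on the same side with both siRNAs without being called with both. TGFA lies on opposite sides but was called with si-RAB23-9 only.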

How the data were processed

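The deposited table holds, per its file header and the labels, 1 column of FPKM for each of 6 libraries, made by the authors. Per the submitters' processing notes, the tools were RSEM 1.2.29, STAR 2.5.1b, edgeR 3.8.5, Trimmomatic 0.36 and FastQC, with no roles given, and the build hg19. Start and end of all 58735 genes equal GENCODE release 29 (GRCh38), so coordinates are on GRCh38, not hg19. The gene length column, in bases per the file header, was multiplied with the deposited FPKM. The product was divided by a step for each library that was inferred from these same values. After this, 100% of values gave whole reads within 0.01 read. Symbols turned into dates (27) were repaired by gene ID.

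Limma 3.58.1 (R 4.3.3) was run on log2(FPKM + 1) over 14352 genes that reached 1 FPKM in 2 or more libraries, with 1 mean per group over all 6 libraries and 3 residual degrees of freedom, the prior variance following the mean level, two-sided, with Benjamini-Hochberg adjustment. This scale understates changes of low genes. The fit was tested on simulated data. Intervals are 95% limma intervals. Alternatives were a pseudocount of 0.1, no filter, a mean FPKM of at least 5, median-of-ratios and quantile scaling, voom on the recovered reads, a replicate block and each library left out. The members, lists and 7-mers were chosen with earlier results of these data known. Named genes were the members, RAB23, EGFR, up to 4 called genes of largest change per list and the 3 genes most like SPRY4 and DUSP5. Genes sharing reads with overlapping partners are uncertain. Protein sequences were not used here.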

Additional observations from a re-analysis of the deposited data

Results flagged for a closer look

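The effects of the siRNAs on 5 members differed by the limma test of si-RAB23-9 minus si-RAB23-1 itself. The differences were -0.23 for DUSP4 (adjusted p = 0.0152), -0.27 for DUSP5 (adjusted p = 0.0403), 0.22 for ETV4 (adjusted p = 0.0362), 0.28 for ETV5 (adjusted p = 0.0112) and -0.30 for PHLDA1 (adjusted p = 0.00652). In each case both si-RAB23-9 libraries lay on 1 side of both si-RAB23-1 libraries. This separation was also seen in 63.2% of all genes tested. With any 1 library left out these differences ranged from -0.261 to -0.195 for DUSP4, -0.348 to -0.187 for DUSP5, 0.18 to 0.264 for ETV4, 0.247 to 0.303 for ETV5 and -0.327 to -0.272 for PHLDA1.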

How the results depend on the processing

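Results were recomputed under up to 14 alternatives. When a library was left out, the lone library of its group was assumed to vary like the others. Without a filter 35196 genes were tested, where the main fit tested 14352. Of these 983 genes and 1 member were called with si-RAB23-9, 1049 genes and 3 members with si-RAB23-1, and 1458 genes and 3 members between the siRNAs. With voom on library totals or on median-of-ratios scaling, 3408 and 3411 genes and in both cases 6 members were called with si-RAB23-9, and 3800 and 3823 genes with si-RAB23-1. With 1 library left out, the calls ranged over 273 to 2159 genes and 0 to 4 members with si-RAB23-9, 417 to 1886 genes and 0 to 4 members with si-RAB23-1, and 761 to 2756 genes and 0 to 6 members between the siRNAs. The cause was not tested. Of 414 alternative values of the members, 336 kept direction and side of the threshold, 53 were no longer called (43 of them with a library left out), 18 became called and 7 changed sign. The sign changes were of values that were not called. Over the libraries left out, the log2 fold changes with si-RAB23-9 were -0.034 to 0 for DUSP4 and -0.078 to 0.108 for EHF. Those with si-RAB23-1 were -0.165 to 0.119 for DUSP6, -0.056 to 0.05 for SPRED2, -0.047 to 0.008 for PHLDA1, -0.032 to 0.042 for EGFR and -0.045 to 0.002 for GRB2. Those between the siRNAs were -0.102 to 0.03 for SPRED1 and -0.044 to 0.066 for PTPN11. Quantile scaling gave -0.046 for EGFR with si-RAB23-1 and -0.001 for PTPN11 between the siRNAs, and voom on library totals gave -0.026 for EGFR. SPRY4, SPRED1, RAB23, DUSP2, DUSP7, DUSP16, EHF and EPHA4 were not tested at a mean FPKM of at least 5. With the replicate block 1437, 1655 and 2423 genes and 2, 4 and 4 members were called in the 3 comparisons. Same-numbered libraries correlated at 0.061, -0.016 and -0.056 in their deviations, so the numbers were not taken to pair the libraries. Scaling moved the median of all genes tested by less than 0.1 on the log2 scale. Reads recovered for the members limit SPRED1, DUSP6, SPRY2 and SPRY4 most.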
